A study of Mus musculus with 16 samples.

Results

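Libraries from the inguinal fat pad of male mice were divided by their content of B cell RNA. The inguinal depot encloses a lymph node, so a piece of the pad can carry node tissue or lack it. Libraries in which Cd79a, a chain of the B cell receptor, reached 10 CPM (the count of a gene per 1000000 counts of its library) were set against libraries under 10. The members were thus chosen by measured Cd79a values. All 16 libraries of the study were placed: 7 were Cd79a-high and 9 were Cd79a-low. The study compared whole-body Kmo knockout (KO) mice with wild-type (WT) littermates, on chow or on a high-fat diet (HFD), with 4 mice in each of the 4 groups at 6 to 7 months of age. Kmo encodes kynurenine 3-monooxygenase, an enzyme of tryptophan breakdown. No group carried another allele or agent according to the labels. RNA was poly-A selected bulk RNA of the tissue, so fewer cells of a type and less RNA per cell cannot be told apart.

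A lymph node holds B cells in follicles and T cells in the zone between them. Fibroblastic stromal cells make the chemokines Ccl19, Ccl21a and Cxcl13, which draw T cells and B cells to their zones. Naive lymphocytes enter from blood through high endothelial venules, whose cells decorate mucins such as Glycam1 with sulphated sugars, and lymph drains through sinuses lined by lymphatic endothelium and macrophages. Lymphotoxin made by lymphocytes keeps this stroma in place through its receptor Ltbr and the alternative NF-kB pathway.

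The promoter ends of Cd79a, which set the classes, and of Glycam1, the venule mucin among the largest increases, are shown as the starts of a B cell gene and of a venule gene. Each run stops at the base before the gene's first annotated base, reads 5′ to 3′ along the gene's strand and comes from RefSeq on GRCm38.p6. It covers 134 bases at chr7:24897247-24897380 (plus strand) for Cd79a and 250 bases at chr15:103565082-103565331 (minus strand) for Glycam1. Capitals mark CAGGTG or its opposite strand, an E-box bound by E proteins and related factors, picked for display after the matches were seen.
Cd79a: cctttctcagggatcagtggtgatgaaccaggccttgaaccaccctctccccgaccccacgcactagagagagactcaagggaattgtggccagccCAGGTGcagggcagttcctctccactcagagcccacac
Glycam1: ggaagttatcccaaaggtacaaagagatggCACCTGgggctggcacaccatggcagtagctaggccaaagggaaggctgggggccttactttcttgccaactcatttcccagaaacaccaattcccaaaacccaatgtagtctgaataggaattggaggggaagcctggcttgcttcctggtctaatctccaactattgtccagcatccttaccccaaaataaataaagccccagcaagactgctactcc
In the 250 bases before each RefSeq start, CAGGTG on either strand was present in 5657 of 32851 windows (17.2%). It was in 10 of the 16 B cell genes with an entry, 8 of the 18 T cell genes and 2 of the 9 lymphotoxin and NF-kB genes. The motifs below were in 0 of those 9. Shares are per window, whereas a gene counted if any of its windows matched, so gene counts cannot be set against the shares. The octamer ATTTGCAT was in 1.6% of all windows and in 2 of the 16 B cell genes (Blnk and Vpreb3). The shares were 3.21% for CTTTGAT, bound by TCF and LEF factors, 2.88% for the ETS motif CCGGAAGT and 2.44% for the PU.1 motif GAGGAAGT, with 1 of the 18 T cell genes each and 1, 0 and 2 of the 16 B cell genes in the same order. These matches describe letters and not sites in use.

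Cd79a (chromosome 7, bases 24897381 to 24902197 on GRCm38) was 18.1, 46.3 and 91.5 CPM in WT chow replicates 1, 2 and 4, 60.9 and 77.4 in KO chow replicates 1 and 3, 82.2 in WT HFD replicate 2 and 86.3 in KO HFD replicate 1. In the low class it was 0.64 in WT chow replicate 3, 4.4 and 0.713 in KO chow replicates 2 and 4, 1.26, 3.44 and 0.18 in WT HFD replicates 1, 3 and 4, and 0.196, 1.6 and 1.72 in KO HFD replicates 2, 3 and 4. These values set the classes. The library just inside the threshold was WT chow replicate 1 and the library just outside was KO chow replicate 2.

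Ms4a1 (CD20, a B cell surface protein; chromosome 19, bases 11249675 to 11266241) ran from 23.6 to 93.5 CPM in the high class, with a median of 63.4, and from 0.299 to 3.98 with a median of 0.704 in the low class. Tcf7 (a transcription factor of naive T cells; chromosome 11, bases 52252371 to 52283331) was 87.3 and 81.0 CPM in WT chow replicate 4 and KO chow replicate 3, 41.1 in WT chow replicate 2, 27.7 in KO chow replicate 1, 27.3 in KO HFD replicate 1, 12.2 in WT HFD replicate 2 and 3.91 in WT chow replicate 1. The 9 low libraries lay between 0.714 and 1.95. Neither gene overlapped between classes, but the step for Tcf7 was small in WT chow replicate 1.

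WT chow replicate 1 fitted the lymph node label only in part. Its B cell genes were high, with Ms4a1 at 23.6 CPM against 0.299 to 3.98 in the low class. Its Ccl21a was 0.651 CPM, inside the low range of 0 to 1.86, while the other 6 high libraries held 11.5 to 58.9. Lef1, a T cell transcription factor, was 0.391 there, inside the low range of 0.12 to 0.566, and Prox1, the defining transcription factor of lymphatic endothelium, was 0.521 against a low range of 0.256 to 1.13. Other node genes there lay above the low range but below the other 6 high libraries: Glycam1 was 0.977 CPM against a low maximum of 0.252, Tnfsf11 1.11 against 0.195 and Clu 72 against 41.5. Among T cell genes, Ccr7 was 2.08 against 1.52 and Cd8a, a killer T cell co-receptor, 4.95 against 2.14, and the T cell list summed to 105.7 CPM against a low maximum of 67.2. The classes are therefore named by Cd79a, and the fold changes below keep all 7 high libraries unless stated.

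**Figure D1:**
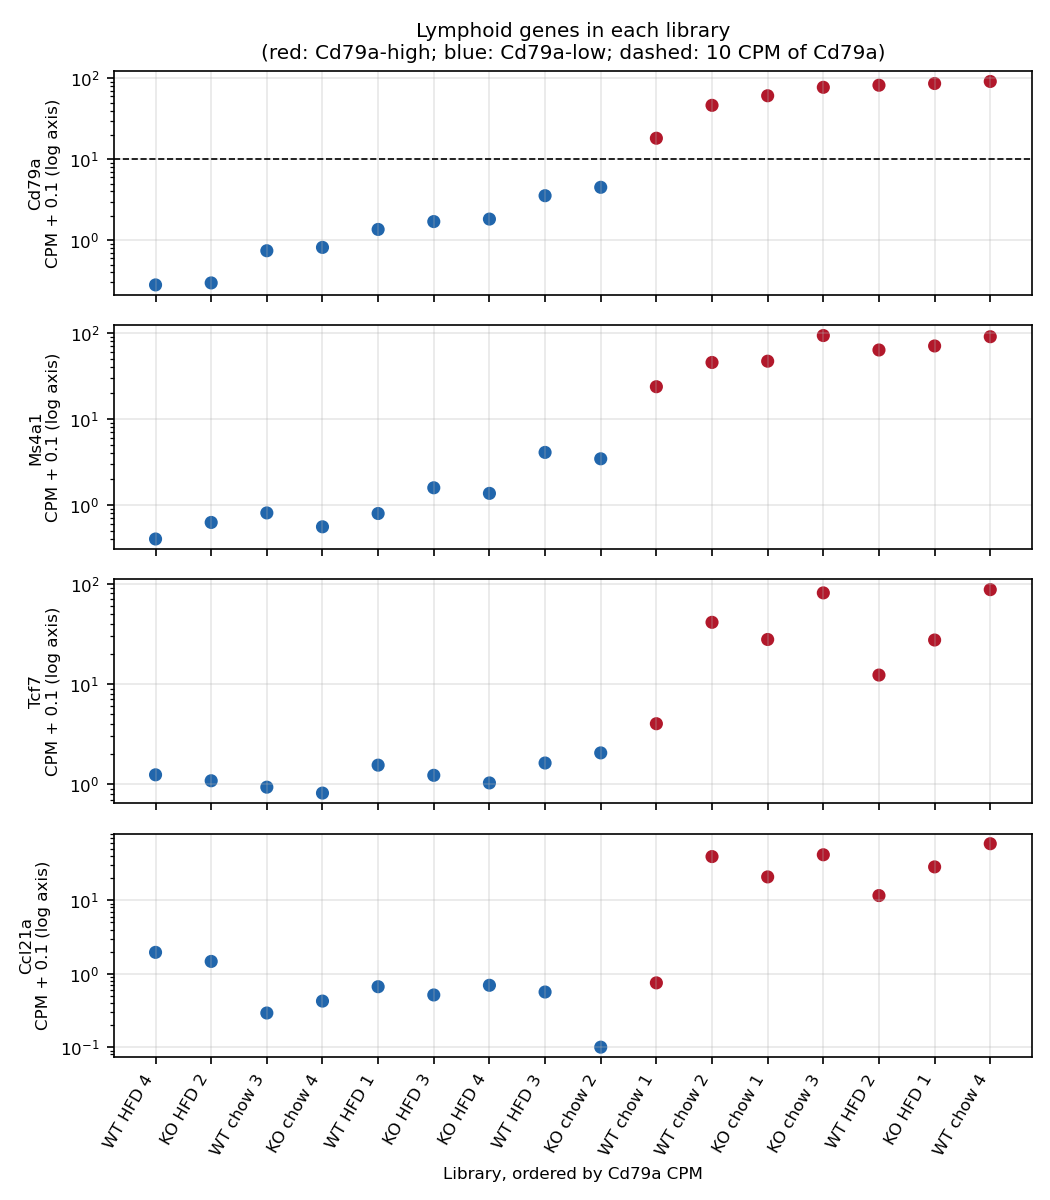
Each point is 1 library, ordered by its Cd79a level, with CPM + 0.1 on log axes for Cd79a, Ms4a1, Tcf7 and Ccl21a. The 7 Cd79a-high libraries are red and the 9 Cd79a-low libraries blue; WT chow replicate 1 stands with the high class for Cd79a and Ms4a1 and with the low class for Ccl21a.

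T cell and B cell RNA were not present in a fixed proportion. The summed CPM of the 30 T cell genes was divided by that of 21 B cell genes (the list without Ighm, Ighd and Igkc, but with Cd79a). This ratio was 0.908 in WT chow replicate 4, 1.01 in KO chow replicate 3, 0.832 in WT chow replicate 2 and 0.594 in KO chow replicate 1. It was 0.432 in KO HFD replicate 1, 0.343 in WT chow replicate 1 and 0.32 in WT HFD replicate 2. Low libraries ranged from 0.631 to 1.39, at sums of 27.7 to 67.2 CPM for T cells and 34.8 to 92.7 for B cells. Both high libraries on HFD lay below the 4 high chow libraries other than WT chow replicate 1. No test was made, since only 2 high libraries were on HFD.

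**Figure D2:**
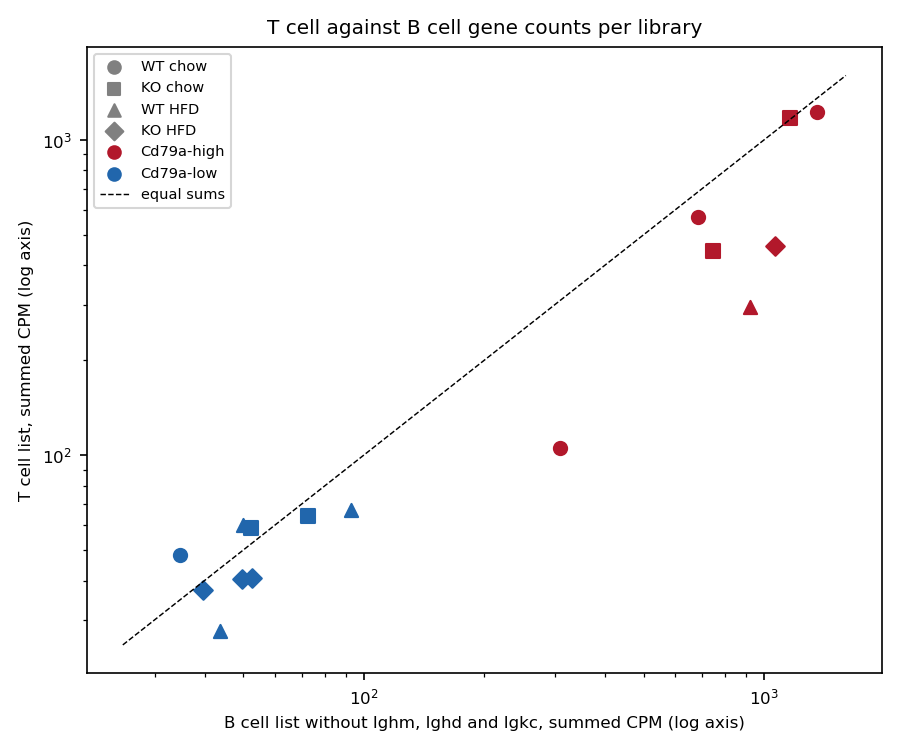
Each point is 1 library, with the summed CPM of 21 B cell genes on the x axis and of 30 T cell genes on the y axis, both log axes; colour gives the class, shape the group, and the dashed line equal sums. High libraries reach 308 to 1353 CPM for B cells, a sum that includes Cd79a. WT chow replicate 1 and WT HFD replicate 2 lie furthest below the line.

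The high class held 5 of 8 chow libraries and 2 of 8 HFD libraries (two-sided Fisher's exact test, p = 0.315), and 4 of 8 WT and 3 of 8 KO libraries (p = 1). Total counts ran from 13824404 to 16909361 per library. In the file, 12 libraries were merged over lanes, of which 5 were high, and 4 came from a single lane, of which 2 were high (Fisher's exact test, p = 1). Summed CPM of the skeletal muscle list was 74.4 to 992 in high and 50.3 to 5291 in low libraries, with 0 of 13 tested genes called. All 12 genes fitted within each diet were below 0 on chow (-2.33 to -0.74) and above 0 on HFD (0.51 to 1.26), where only 2 libraries were high. The low chow sums were 5291 in WT chow replicate 3 and 50.3 and 1007 in KO chow replicates 2 and 4. These genes rise together in single libraries, so they do not count as separate observations, and a dependence on diet was not tested. The part of the muscle list in the class differences was not tested beyond a fit that carried it as a term, where 1802 genes were higher and 1094 lower.

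Differences between the classes were estimated with diet and genotype as additive terms (edgeR quasi-likelihood fit, 16549 genes). Since every gene comes from the libraries that set the classes, these are descriptions, and an adjusted p under 0.05 serves as a cut for counting, not as a test. By that cut 1779 genes (10.7%) were higher in the high class and 991 (5.99%) were lower. The 2 directions differed in size: with a log2 fold change of at least 1, 1006 higher and 9 lower genes remained. Without any overlap between the classes there were 576 higher genes (3.48%) and 15 lower genes (0.0906%). Each list count below is to be read beside these shares of all genes. The median log2 fold change over all genes was -0.04. The lower count was 314 without KO HFD replicate 1, 426 without WT chow replicate 3 and 631 without KO chow replicate 3. Among the 8 chow libraries alone the cut left 0 genes in edgeR, with 2701 at an unadjusted p under 0.05, and among the 8 HFD libraries alone it left 670 higher and 11 lower. Without WT chow replicate 1 and WT HFD replicate 2, the high libraries with the least T cell RNA for their B cell RNA (left out together after the data were seen), 2065 genes were higher and 1477 lower. Then 23 of 24 B cell, 30 of 30 T cell, 10 of 13 stromal, 5 of 8 venule, 6 of 11 lymphatic and 6 of 7 node macrophage genes were higher. Of 18 adipocyte and 12 blood vessel genes 7 each were lower, against 6 and 3 over all 16 libraries. Calls over all genes rose as well. The 2 libraries were picked by the T and B cell lists counted here, so these counts are no test.

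**Figure D3:**
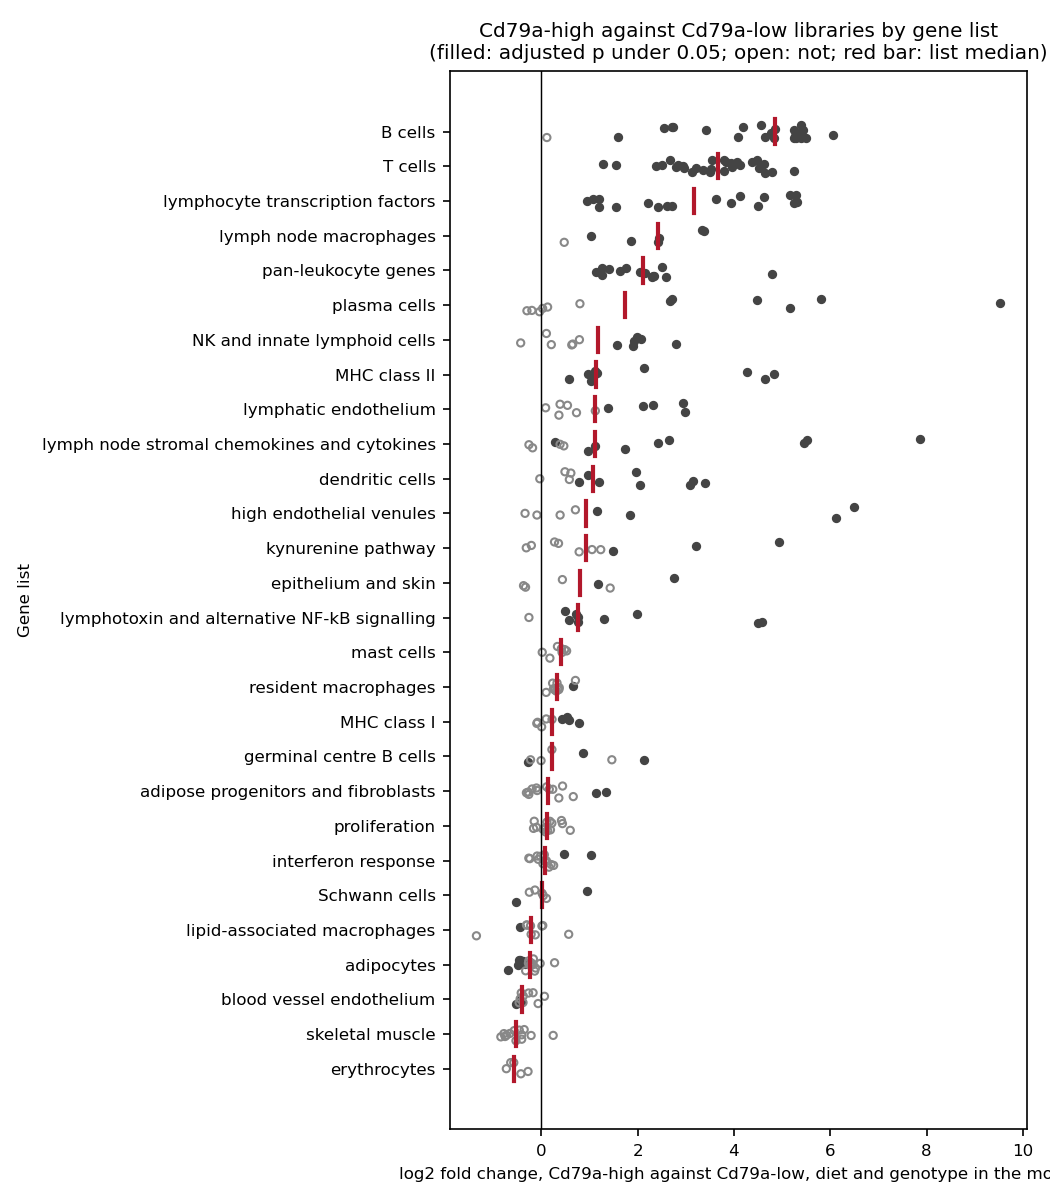
Each point is 1 gene, with its log2 fold change between Cd79a-high and Cd79a-low libraries on the x axis and its gene list on the y axis; filled points passed the cut, open points did not, and red bars are list medians. B cell and T cell lists have medians of 4.84 and 3.67, while adipocyte, vessel, muscle and erythrocyte lists have medians below 0; the muscle median is that of both diets together, and is -1.95 on chow and 0.94 on HFD.

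Of 24 B cell genes, 23 were higher and 0 lower, with a median log2 fold change of 4.84. They include Cd79a, which set the classes and was higher by that choice. Fcmr, the Fc receptor for IgM, was 9.7 to 52.4 CPM in high and 0 to 1.38 in low libraries, a log2 fold change of 6.05 (SE 0.48, 95% interval 5.02 to 7.08). Fcer2a (CD23, the low-affinity IgE receptor) differed by 5.5 and Cxcr5, the receptor that guides B cells to follicles, by 5.43. Ighd, the constant region of IgD that naive B cells carry, differed by 4.83, from 2.21 to 8.21 CPM in low libraries to 52.5 to 194 in high ones.

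Ighm, the IgM constant region, was the exception among B cell genes. It was 407 to 1504 CPM in high and 291 to 1482 CPM in low libraries, with a log2 fold change of 0.12 (95% interval -0.30 to 0.54). Its level in the low class was not accompanied by like levels of Cd79a, Ms4a1 or Ighd. Ighm was higher on HFD, by 1.17 on the log2 scale with the class as a term (SE 0.19, adjusted p = 0.000549, edgeR) and by 1.13 without it, from a median of 561 CPM on chow to 1181 on HFD. Counts were made without strand, so reads from overlapping transcripts at this locus cannot be told apart.

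All 30 T cell genes were higher, with a median of 3.67, where 10.7% of all genes were higher. Of these, 17 did not overlap between classes, where 3.48% of all genes were higher without overlap. Lef1 differed by 5.25 and Ccr7, the receptor for Ccl19 and Ccl21a, by 4.64. Cd8b1 and Cd4, co-receptors of the killer and helper subsets, differed by 4.52 and 3.99. Foxp3, which defines regulatory T cells, differed by 2.94. Variable segments of T cell receptors, summed over 170 genes, came to 1.69 to 33.8 CPM in high and 0.523 to 1.32 in low libraries, and those of immunoglobulins, over 348 genes, to 39 to 241 and 1.5 to 46. Segments are near-identical copies, so single segments are uncertain.

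Of 18 lymphocyte transcription factors, 18 were higher, with a median of 3.17. Spib and Pax5, which direct B cell identity, differed by 5.31 and 5.30, and Pou2af1, a B cell coactivator of octamer factors, by 5.17. The broadly expressed Ets1 and Foxp1 differed by 1.07 and 0.96. All 14 pan-leukocyte genes were higher too, with a median of 2.10, among them Ptprc (CD45) at 2.15.

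Stromal genes of the node followed the lymphocytes only in part. Of 13 stromal chemokine and cytokine genes tested, 9 were higher, with a median of 1.12. Ccl19 (chromosome 4, bases 42754525 to 42756577) was 12.8 CPM in KO chow replicate 3, 8.86, 4.9 and 0.0651 in WT chow replicates 4, 2 and 1, 3.63 in KO chow replicate 1, 2.6 in KO HFD replicate 1 and 1.64 in WT HFD replicate 2. The low class held 1 count of it in all, at 0.0591 CPM in KO HFD replicate 3, close to the 0.0651 of WT chow replicate 1. For this gene WT chow replicate 1 was thus at the level of the low class, although the classes did not overlap. Pooled levels differed by 699-fold with an exact counting interval of 125 to 27700. Ccl19 and Ccl21a have near-identical copies on chromosome 4, so their counts are uncertain.

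Cxcl13, the follicle chemokine, was 16.6 to 32.4 CPM in high and 0.44 to 11.1 in low libraries, and in WT chow replicate 1 it was 17.1, unlike Ccl21a. Tnfsf11 (RANKL) differed by 5.52 and Clu, abundant in follicular dendritic cells, by 2.43, from 17.5 to 41.5 CPM to 72 to 282. Ltbr differed by -0.26, Pdpn by 0.39 and Mfge8 by -0.18, and none of the 3 passed the cut. Grem1, a BMP antagonist made by node fibroblasts, was 0.395 to 6.95 CPM in high libraries and held 3 counts in the low class.

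Of 8 high endothelial venule genes tested, 4 were higher, where 10.7% of all genes were. Glycam1 (chromosome 15, bases 103562759 to 103565081) ran from 0.977 to 25.1 CPM in high and from 0 to 0.252 in low libraries, a log2 fold change of 6.13 (SE 0.64, 95% interval 4.76 to 7.5). Chst4, a sulphotransferase of venule mucins, had 100 counts in high libraries and 0 in low ones, so that pooled levels were at least 44.7-fold higher, with the floor taken as 3 counts over the low class. Fut7 differed by 1.84 and Gcnt1 by 1.15, while Ackr1 and Cd300lg, at 0.39 and -0.34, did not pass the cut. The list's median was 0.93.

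Of 11 lymphatic genes, 5 were higher, where 10.7% of all genes were. Stab2, a scavenger receptor of sinus endothelium, was 2.41 to 21.2 CPM in high and 0.653 to 2.39 in low libraries, a difference of 2.99, and Prox1 differed by 2.32. Lyve1, a hyaluronan receptor, was 9.24 to 59.2 and 9.09 to 47.1 CPM and did not pass the cut, at 1.12 with an interval of 0.25 to 1.99. Flt4, the VEGF-C receptor, was at 0.09.

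Of 7 node macrophage genes, 6 were higher, with a median of 2.41. Marco and Timd4, markers of sinus and medullary macrophages, differed by 3.34 and 3.37. Cd209b was 4.67 to 24 CPM in the low class and 17.2 to 126 in the high class. Among adipose resident macrophage genes 1 of 12 was higher (Lyz2, by 0.67) and 0 lower, where 10.7% of all genes were higher. All 12 had a log2 fold change above 0, with a median of 0.32. Of 12 dendritic cell genes 8 were higher, led by Ccl22 at 3.39, Ccr9 at 3.15 and Flt3 at 3.09, and of 12 natural killer and innate lymphoid genes 6 were higher, led by Eomes at 2.80.

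The lymphotoxin genes Lta and Ltb differed by 4.59 and 4.50. Ltb was 10.6 to 92.9 CPM in high and 1.02 to 4.65 in low libraries. Of the 10 genes of this pathway 9 were higher, with a median of 0.76, and among the downstream members Relb and Nfkb2 each differed by 0.76 and Map3k14 (NIK) by 0.72.

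Among MHC class II genes all 10 were higher. They differed in size: H2-Oa, H2-Ob and H2-DMb2, which tune peptide loading, differed by 4.83, 4.65 and 4.27, whereas H2-Aa and Cd74, carried by all antigen-presenting cells, differed by 1.11 and 1.15. H2-Aa was 330 to 629 CPM in high libraries and 185 to 344 in low ones. Of 9 MHC class I genes 4 were higher, the largest being Tap1 at 0.79, where 10.7% of all genes were higher.

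Germinal centre and plasma cell genes divided. Of 7 germinal centre genes tested, Gcsam (2.13) and Basp1 (0.87) were higher and Fas (-0.27) was lower. Over all genes 10.7% were higher and 5.99% lower, and 7 genes are too few to tell these counts from those shares. None of 14 proliferation genes passed the cut, with Mki67 at 14.5 to 39.4 CPM in high and 7.9 to 31.3 in low libraries. Of 12 plasma cell genes 6 were higher, among them Ighg2c at 5.82. Sdc1, Xbp1 and Prdm1, also on the plasma cell list, were at -0.04, -0.20 and 0.13 and did not pass.

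Ighg1, the IgG1 constant region, was 40.3 CPM in WT HFD replicate 2, 26.1 in KO HFD replicate 1 and 0.781 to 8.72 in the 5 high chow libraries, against 0 to 0.133 in the low class. With the class as a term it was higher on HFD by 2.45 (adjusted p = 0.00241, edgeR), a value that rests on those 2 HFD libraries, and without the term by 1.21 (adjusted p = 0.559). KO chow replicate 2, the low library nearest the threshold, held 117 CPM of Igkc and 28.2 of Jchain, the antibody joining chain, within the high class's range of 75.1 to 398 and 13.3 to 57.8.

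Some of the largest differences were in genes with no list. Pcdh15, a protocadherin, was 2.28 to 8.44 CPM in high and 0 to 0.252 in low libraries, a log2 fold change of 6.42. Apol7c differed by 6.04, Dsc3 (a desmosomal cadherin) by 5.83, Cacna1i (a T-type calcium channel) by 5.63 and H2-Eb2 by 5.48. Syt13, a synaptotagmin, was 0.26 to 4.27 CPM in the high class and held 3 counts in the low class. Of 82 ribosomal protein genes, 45 were higher and 0 lower, with a median of 0.33, and their summed level was 15210 to 20290 CPM in high and 12820 to 17260 in low libraries.

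Of the 991 genes lower in the high class, 9 had a log2 fold change of at least 1 in size. The 10 largest among those without overlap ran from -0.51 for Lins1 to -0.34 for Stx18, and Pla2g12a, a secreted phospholipase family member, was 54.2 to 66.2 CPM in high and 68.7 to 88.6 in low libraries. Of 18 adipocyte genes 6 were lower and 0 higher, with a median of -0.24. Lep (leptin) differed by -0.68, with overlapping values of 663 to 5093 and 983 to 6024 CPM, and Pparg by -0.34. Adipoq (adiponectin) was 1718 to 2702 and 2221 to 3116 CPM, at -0.18 (95% interval -0.42 to 0.07). Of 12 blood vessel genes 3 were lower, Esam (-0.52), Tie1 (-0.44) and Flt1 (-0.42), where 5.99% of all genes were lower. The adipose progenitor list had 2 higher of 14, Dpp4 at 1.35 and Icam1 at 1.14, near the 10.7% of all genes that were higher.

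The kynurenine pathway bears on the knocked-out gene. Kynu, which cleaves kynurenine and 3-hydroxykynurenine, was 1.24 to 4.77 CPM in high and 0 to 0.199 in low libraries, and Haao, the next enzyme towards quinolinic acid, was 6.84 to 28.5 and 0.659 to 2.52. They differed by 4.93 and 3.21, and Qprt, which converts quinolinic acid, by 1.49. These 3 of 10 tested genes passed the cut over all 16 libraries, where 10.7% of all genes were higher.

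Kmo (chromosome 1, bases 175620381 to 175662116) was 0.0662 to 0.503 CPM in the 8 KO libraries. In WT it was 7.62, 15.02 and 20.3 CPM in the high chow replicates 1, 2 and 4 and 14.1 in the high HFD replicate 2, against 2.56 in the low chow replicate 3 and 2.64, 4.57 and 5.39 in the low HFD replicates 1, 3 and 4. The WT classes did not overlap, and the log2 fold change with diet as a term was 2.01 (SE 0.41, 95% interval 1.08 to 2.94). In WT, Kynu differed by 4.81, Haao by 3.20 and Ahr, a receptor for kynurenines, by 0.43, each without overlap, and with Kmo these were 4 of the 10 pathway genes, where 1043 of the 15500 genes fitted in WT (6.73%) were higher and 191 (1.23%) lower without overlap. Kyat3, a kynurenine aminotransferase, differed by -0.36. Of 15500 genes fitted in WT alone, 23 (0.148%) passed the cut, all higher, and 0 of the 10 pathway genes did in edgeR, where 1489 genes had an unadjusted p under 0.05, against 3 in DESeq2, and 4 in edgeR without WT chow replicate 1 and 2 without WT chow replicate 4.

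**Figure D4:**
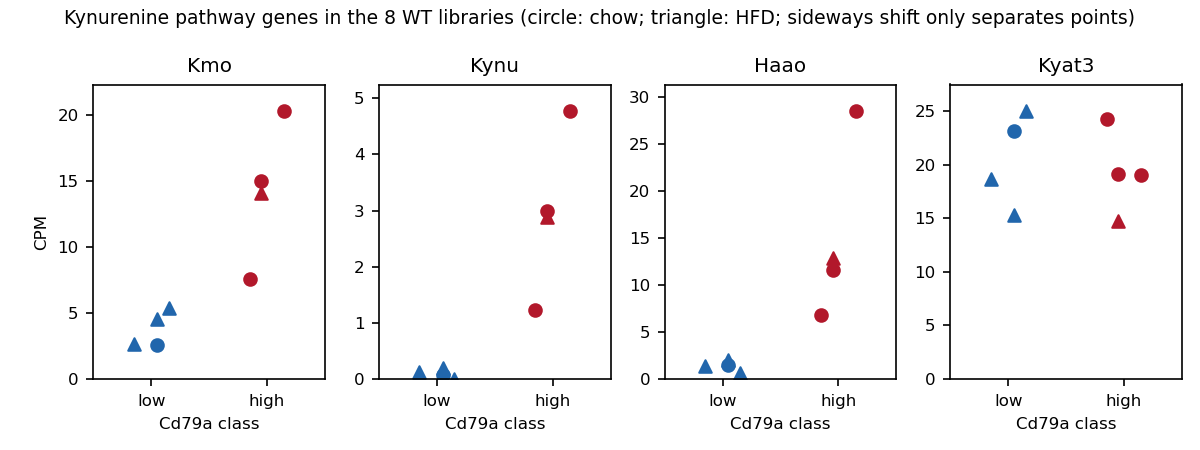
Each point is 1 of the 8 WT libraries, with CPM on the y axis from 0 and the class on the x axis, for Kmo, Kynu, Haao and Kyat3; circles are chow and triangles HFD. Kmo, Kynu and Haao do not overlap between classes, with Kmo at 2.56 to 5.39 in low and 7.62 to 20.3 in high libraries, and Kyat3 does overlap.

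The effect of the knockout on Kmo was -5.25 on the log2 scale with the class as a term (SE 0.45, adjusted p = 4.41e-05, edgeR) and -5.60 without it (adjusted p = 0.000113). It was the only gene called for genotype in either fit (0.00604% of genes).

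The class also entered the diet comparison. With the class as a term 5121 genes (30.9%) differed between HFD and chow, and without it 5680 (34.3%). The fits shared 4599 genes, 89.8% of the first and 81% of the second. Without the class term Ccl5, a T cell chemokine, was at a log2 fold change of -2.49 on HFD (adjusted p = 0.0475, edgeR), and with it at -1.17 (adjusted p = 0.113). Camk4, a kinase of T cells, was at -2.58 (adjusted p = 0.0155) without and -1.35 (adjusted p = 0.0779) with the term, and Ifi208, Asprv1 and Cacnb3 were likewise called without the term only. Sema3d, Cd300e, Arnt2 and Pi16 were called with it only; Sema3d was higher on HFD by 1.82 (adjusted p = 0.00351) with and 0.91 (adjusted p = 0.189) without. The median over the 30 T cell genes was -0.79 with the term and -2.07 without, with 0 and 2 genes called lower, where 15.1% and 16.8% of all genes were called lower.

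Whether the class difference itself depended on diet or genotype was tested by interaction terms. In edgeR 0 genes (0%) passed for diet and 0 (0%) for genotype, with 246 and 285 genes at an unadjusted p under 0.05. DESeq2 called Igha, the IgA constant region, for diet, and 3 immunoglobulin segments for genotype, Igkv2-109, Igkv4-53 and Ighv4-1. The DESeq2 log2 estimates of these segments were extreme, at -18.1, -19.1 and -16.5, and none of the 3 passed in edgeR. For Igha the edgeR interaction was 4.61 (95% interval 2.71 to 6.50), and its levels were 16.96 and 4.56 CPM in the high HFD libraries and 2.86 to 10.9 in the high chow libraries, while in the low class it was 1.15, 3.02 and 7.07 CPM on chow and 0.0599 to 0.523 on HFD, so that the classes overlapped on chow and not on HFD. The median gene's 95% interval for the interaction reached 0.619 to either side for diet and 0.574 for genotype, before any adjustment over genes, and differences as large as that of Igha did not pass after it (adjusted p = 1, edgeR).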

How the data were processed

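Poly-A RNA of inguinal fat from 16 mice was sequenced as paired reads of 150 bases, from RNA with integrity numbers above 7, using a stranded mRNA kit, per the labels' protocols. The aligner was STAR 2.7.3a and the build GRCm38.p6, per the submitters' processing notes. Deposited values are whole-number counts, not normalised; per the file headers they were made by featureCounts 2.0.3 on read pairs, ignoring strand, with Ensembl release 102. Here 55487 genes were read, 55141 of them with a symbol, and 16549 passed filterByExpr. TMM factors and the quasi-likelihood fit came from edgeR 4.0.16 in R 4.3.3, with Benjamini-Hochberg adjustment at 0.05; limma 3.58.1 and DESeq2 1.42.0 were alternatives. The code of the fit was tried on simulated counts with differences planted in well-counted genes. That trial does not bear on genes with few counts. Besides the 5 promoter motifs given, 3 longer ones were looked for and are not reported.

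Classes were set by Cd79a of 10 CPM. The members and gene lists were chosen with earlier results of these data known. Named genes were the class markers and Kmo, the 15 largest increases and 10 largest decreases among called genes without overlap and with a mean of at least 1 CPM (predicted genes and receptor segments left out), up to 6 members per list, and 5 genes per set for diet; some of these are given by count only, and genes set beside them for contrast were picked after their values were seen. Printed levels are plain CPM and fold changes use TMM factors. Intervals on pooled counts cover counting error only. Nothing beyond the labels' 4 mice per group says how the animals were housed or batched. Replicate numbers were not used as pairs in the main fit. Deviations of same-numbered libraries correlated between -0.694 and 0.553 (median -0.222), and those of other numbers between -0.605 and 0.76 (median 0.0601). Such correlations cannot say whether mice were paired.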

Additional observations from a re-analysis of the deposited data

Results flagged for a closer look

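Summed levels per list and class, and Cd79a, Ms4a1 and Tcf7, were screened for a library far from the rest of its class on a log2 scale. Of 66 class groups 8 held such a library. The rule's nominal rate is about 5% of groups, but this count cannot be set against it. The groups reuse the same 16 libraries, some genes are in more than 1 list, and Cd79a itself set the classes. WT chow replicate 1 was the lowest of the high class for Cd79a at 18.1 CPM, lymph node macrophage genes at 91.0, lymphotoxin and NF-kB genes at 206.5, pan-leukocyte genes at 524.4 and MHC class II genes at 1506. All its list sums named here lay inside the low range, whose maxima were 109.8, 263.1, 635.6 and 1807 in the same order. KO HFD replicate 1 was the lowest of the high class for MHC class I genes at 5279 CPM. WT HFD replicate 3 was the highest of the low class for pan-leukocyte genes at 635.6 CPM, and WT HFD replicate 4 was the highest of the low class for ribosomal protein genes at 17260 CPM.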

How the results depend on the processing

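Of the 1779 higher and 991 lower genes, an adjusted p under 0.10 gave 1888 lower, a log2 fold change of at least 1 gave 1006 and 9, no diet and genotype terms gave 1526 lower, only chow libraries gave 0 and 0, only HFD libraries gave 670 and 11, and only libraries merged over lanes, chosen after seeing the data, gave 200 lower. Leaving out each library in turn gave 1316 to 2158 higher and 314 to 1243 lower, 3575 to 5428 genes for HFD (5121 with all), 0 to 4 pathway genes in WT, and differences in the share of high libraries of 32.1 to 48.2 percentage points by diet and 5.36 to 21.4 by genotype. For HFD a log2 fold change of at least 1 left 937. DESeq2 called 1 gene for the class by diet and 3 for the class by genotype interaction, and 3 pathway genes in WT, as did the model of all 16 libraries. With the replicate block, 1762 genes were higher and 714 lower and 4368 were called for HFD. Among chow libraries alone, Cd79b (4.58), Ms4a1 (5.40), Tcf7 (5.36), Ccl19 (9.69) and Glycam1 (5.70) kept their direction but missed the cut. Leaving out WT chow replicate 1 and WT HFD replicate 2 together, chosen after seeing the data, gave 2065 higher and 1477 lower, of which 1709 and 869 were shared with the full set. The causes of these shifts were not tested. Higher genes outnumbered lower ones in every setting but chow alone, which gave 0 of each. The 6 marker genes kept their direction under every setting that fitted them, as did Kmo in WT. Ccl19 and Glycam1 had no fit among HFD libraries alone. Between the chow-only and HFD-only fits some genes turned, among them Flt4 (-0.13 and 0.39), Sdc1 (-0.11 and 0.17) and Mfge8 (-0.31 and 0.02). Bcl6 (-0.63 and 0.34) and Mybl1 (0.52 and -0.18) turned as well, and none of these genes was called over all 16 libraries. Medians turned for the skeletal muscle list, with no gene called, the lipid-associated macrophage list (-0.51 and 0.40) and the epithelium and skin list (0.59 and -0.37).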
